A study of Homo sapiens with 9 samples.

Results

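HIF-1α binding was called at 2989 regions in 2 of the 3 hypoxic libraries of SK-N-BE(2) cells, hypoxia 2 and hypoxia 3, and not in hypoxia 1. They were chosen by joining the distinct intervals of 6 peak lists on chromosomes 1 to 22 and X wherever intervals shared at least 1 bp, and keeping regions with an interval of hypoxia 2 and of hypoxia 3 and none of hypoxia 1. All lists together formed 9397 regions, 9376 of them with a hypoxia call. The 2989 regions are 31.9% of those 9376, a share that the rule itself sets.

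SK-N-BE(2) is a human neuroblastoma line with amplified MYCN, grown here in serum-supplemented RPMI medium. HIF-1α chromatin immunoprecipitation with sequencing (ChIP-seq) was done on fixed chromatin. Cells had spent 48 hours either in 21% oxygen, giving 3 normoxic libraries, or in 1% oxygen, giving 3 hypoxic ones. The 3 input libraries came from cells at 21% oxygen, and they enter only through the background in the lists. All groups share 1 cell line, and the labels do not say whether libraries came from separate cultures, so the spread between them may be technical.

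HIF-1 is a transcription factor whose alpha subunit, HIF-1α, is controlled by oxygen. In oxygenated cells prolyl hydroxylases mark it for destruction through the VHL ubiquitin ligase. In low oxygen it accumulates, pairs with ARNT and binds hypoxia response elements, short DNA sequences near genes of glucose use, blood vessel growth and oxygen sensing. A peak list records where reads piled up beyond the local background, so it shows strong sites more reliably than weak ones. An hg19 sequence or annotation was not used here, so regions are named by position, 1-based on hg19.

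Hypoxia 1, whose lack of a call defines the regions, stood apart from hypoxia 2 and 3 in how its list was made. Its shortest interval, which serves as the fragment extension behind a list, was 48 bp, against 155 bp in hypoxia 2 and 167 bp in hypoxia 3. Depth differed less: the reads per kb of genome-wide background were 6.62 in hypoxia 1, 5.94 in hypoxia 2 and 5.31 in hypoxia 3. Their lists held 1392, 5827 and 7605 intervals on the chromosomes used. The lowest −log10 p of a call was 5.28, 4.43 and 4.23 in that order. The part of these differences in the missing hypoxia 1 calls was not tested. Fewer cells with bound HIF-1α and weaker binding in every cell cannot be told apart in such libraries.

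The 2989 regions made up much of both long lists. They held 3025 of 5827 hypoxia 2 intervals (51.9%, exact binomial 95% interval 50.6% to 53.2%) and 3009 of 7605 hypoxia 3 intervals (39.6%, 38.5% to 40.7%). Regions called in all 3 hypoxia libraries, termed core regions below, numbered 1079. Another 1686 regions were called in hypoxia 2 only and 3457 in hypoxia 3 only. Of the 4068 regions called in both hypoxia 2 and hypoxia 3, 73.5% (72.1% to 74.8%) lacked a hypoxia 1 call. Such intervals reflect counting error alone and take each region as independent.

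The regions without a hypoxia 1 call were sites of middling strength. The authors' fold sets reads at a summit against the local background, with 1 added to both. Its median was 6.75 in hypoxia 2 (quartiles 5.32 and 8.81) and 6.81 in hypoxia 3 (5.30 and 9.17). At core regions the median was 14.5 and 16.9. At regions of a single list it was 5.35 in hypoxia 2 and 5.30 in hypoxia 3. Fold describes a site within its list, and the calls that chose the regions rest on it, so these values are a description.

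Behind a fold lay few reads. The number of reads at a summit, recovered from fold and p, had a median of 15 in hypoxia 2 (quartiles 12 and 20) and 16 in hypoxia 3 (12 and 21). Core regions had a median of 35 and 40 reads, and regions of a single list 11 in either library. At the genome-wide background a call needed 7 reads in hypoxia 2 and 6 in hypoxia 3. The median −log10 p of the regions was 11.7 and 12.0, above the lowest calls of 4.43 and 4.23.

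Within each list the regions held the middle and upper middle of the fold order. Each list was split by fold into 10 bins of about equal size. In the lowest bin of hypoxia 2, 44% of intervals belonged to them and 52.2% to regions of hypoxia 2 only. Their share was 70.7% in bin 7 (folds 7.29 to 8.45), then 17.3% in bin 10, where core regions took 82.7%. In hypoxia 3 their share was 28.7% in bin 1, 62.6% in bin 8 (folds 7.95 to 9.86) and 19% in bin 10, where core regions took 80.6%. The order of the classes from weak to strong was alike in both lists.

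**Figure D1:**
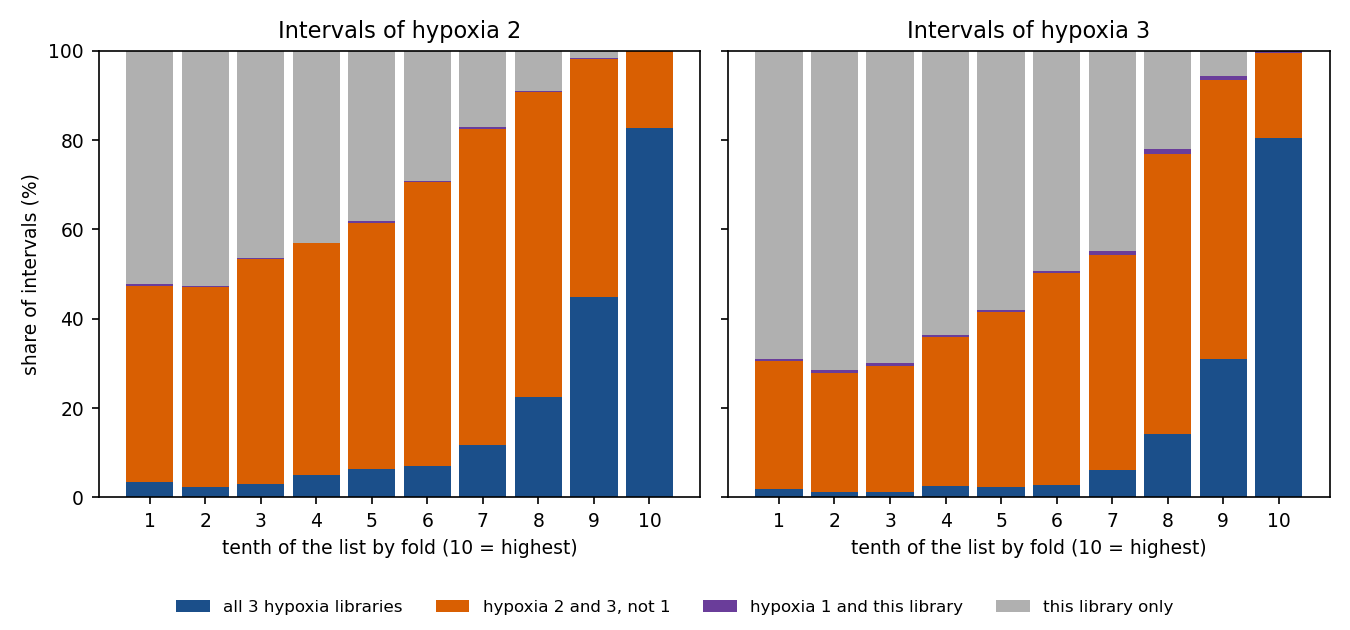
Share of intervals (y axis, %) in each of 10 bins of the list by fold (x axis, bin 10 is the highest), for hypoxia 2 (left) and hypoxia 3 (right), by the hypoxia libraries that called the region. Regions of hypoxia 2 and 3 without hypoxia 1 reach 70.7% in bin 7 of hypoxia 2 and 62.6% in bin 8 of hypoxia 3.

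A hypoxia 1 call was rare up to the middle of the strength order of the other libraries and frequent at its top. Regions called in hypoxia 2 and 3 were ordered by the mean of their 2 fold percentiles. Below the 10th percentile 5 of 81 (6.17%) had a hypoxia 1 call, and from there to the 40th the share was 2.67%, 4.89% and 4.98% in steps of 10. Between the 40th and 50th percentile, 27 of 530 (5.09%, exact 95% interval 3.38% to 7.33%) had a hypoxia 1 call. Between the 80th and 90th percentile 261 of 543 (48.1%, 43.8% to 52.4%) had one, and above the 90th percentile 513 of 597 (85.9%, 82.9% to 88.6%). That left 84 regions above the 90th percentile with no call in hypoxia 1, spread over 22 chromosomes.

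Reads in hypoxia 1 could be set beside those of the other libraries at core regions of low background only, which all had a hypoxia 1 call by choice. There the hypoxia 1 summit held a median of 0.273 times the hypoxia 2 reads (quartiles 0.211 and 0.375, 1073 regions) and 0.241 times the hypoxia 3 reads (0.189 and 0.333). These reads were not corrected for the fragment extension of each list. Genome-wide background, which the extension also affects, was 0.318, 0.920 and 0.886 reads in hypoxia 1, 2 and 3. The ratios thus do not by themselves compare binding between libraries. A call in hypoxia 1 needed 5 reads at its genome-wide background. Multiplied by the first ratio, the hypoxia 2 reads of the regions without a hypoxia 1 call had a median of 4.09, and 899 of 2959 (30.4%, 28.7% to 32.1%) reached 5. With hypoxia 3 reads the median was 3.86, and 787 of 2958 (26.6%, 25% to 28.2%) reached 5. At 2 times the number needed, 76 and 57 regions remained. The ratio rests on regions that hypoxia 1 called, so it may not hold at those that it did not call. Most regions also had a local background above the genome-wide value, with medians of 1.35 and 1.55 times in hypoxia 2 and 3. A call needs more reads where background is higher, so the shares that reached 5 may be too high.

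The strongest of the regions was chr19:940748-941607, 860 bp wide. Its fold was 32.3 in hypoxia 2 and 33.5 in hypoxia 3, from 61 and 66 summit reads, and the summits of both libraries lay 1 bp apart. A core region lay 2.57 kb away. Second was chr22:47044963-47045457, with folds of 29.2 and 24.4 and the nearest core region 113 kb away. At chr7:50575583-50576288 the folds were 21.5 and 28.8, and no core region lay within 4250 kb. No normoxia library called any of these 3.

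The next 7 by mean fold percentile were similar in strength. At chr22:17640080-17640856 the folds were 20 and 29.3 in hypoxia 2 and 3. At chr2:217107077-217107559 they were 23.4 and 24.8, and at chr10:74079180-74080011 23.8 and 23.9. The others were chr7:2680057-2680602 (26 and 21.7), chr19:33615336-33615867 (21.1 and 26), chr16:88794232-88794773 (19.2 and 30.2) and chr10:101088881-101089387 (21.4 and 24.4). In all 10 the summits of hypoxia 2 and 3 lay between 1 and 25 bp apart, and local background was at most 1.74 times the genome-wide value. No normoxia library called any of the 84 regions above the 90th percentile, a number too small to set this apart from the 1.19% of all hypoxia regions with a normoxia call. In the same band 45 of 513 core regions had one.

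The weakest members sat at the callers' limit. The lowest −log10 p in hypoxia 2 was 4.43, at chr2:20777608-20778042, with a fold of 3.27 from 10 reads, while hypoxia 3 had a fold of 8.89 there from 19 reads. The lowest in hypoxia 3 was 4.27, at chr1:194038628-194038953, with a fold of 3.41 from 8 reads, while hypoxia 2 had a fold of 6.79 from 15 reads. Each was thus weak in only 1 of the 2 libraries.

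Few regions came near the edge of the rule. A hypoxia 1 interval lay within 100 bp of 9 of them, within 500 bp of 46 and within 1 kb of 66 (2.21%). The smallest gaps were 6 bp at chr1:3388224-3388648 and 14 bp at chr1:228651441-228651656. Just outside the rule, the hypoxia 1 interval shared 7 bp with a hypoxia 2 or 3 interval at chr1:208905599-208906093 and 32 bp at chr10:104180769-104181098. The first of these had folds of 4.34, 5.73 and 4.39 in hypoxia 1, 2 and 3.

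Both libraries gave similar numbers of reads at most of the regions, which is partly built in because the rule asks for a call in both. Corrected for genome-wide background, the ratio of hypoxia 3 to hypoxia 2 reads had a median of 1.07 (quartiles 0.855 and 1.35) over 2958 regions of low background, and 96% lay between 0.5 and 2. At core regions the median was 1.15 (0.986 and 1.38), and 95.6% lay in the same range. Across the 2989 regions the folds of both libraries had a Spearman correlation of 0.45, and across the 1079 core regions of 0.81. Regions are not replicates, both libraries enter through the same kind of call, and the folds of core regions span a wider range, so these correlations are descriptive.

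**Figure D2:**
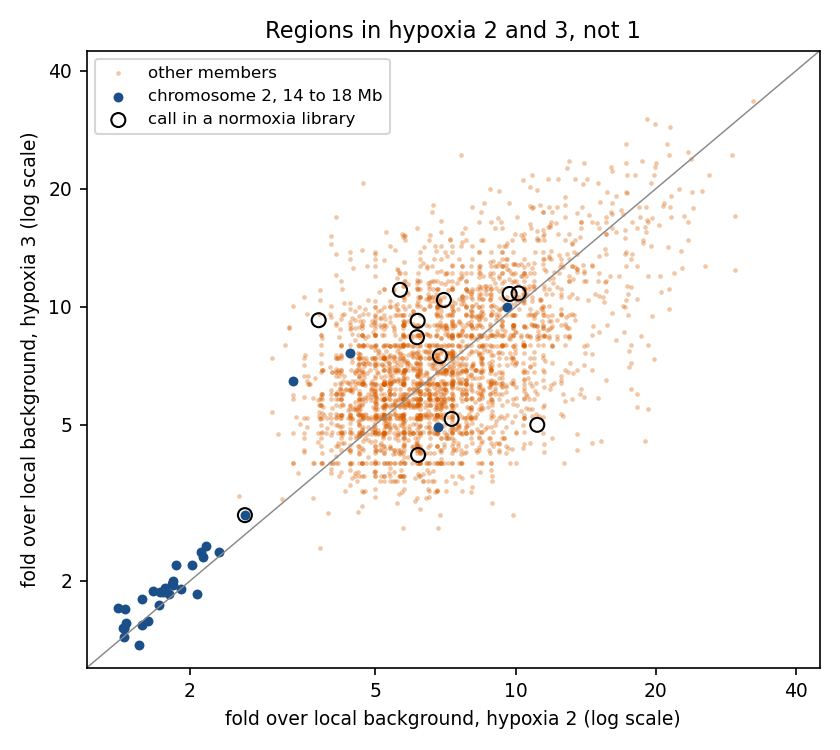
Fold over local background in hypoxia 2 (x axis) and hypoxia 3 (y axis), both log scales, for each of the 2989 regions, with the line of equal fold. The chromosome 2 window from 14 to 18 Mb holds a group of low folds near the line, and circles mark the 12 regions with a normoxia call, all below a fold of 12 in both libraries.

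The regions were narrow. The joined region had a median width of 335 bp (quartiles 274 and 419, 95% order-statistic interval 330 to 339 bp) and ranged from 167 to 2290 bp. The median was 502 bp at core regions, 191 bp at regions of hypoxia 2 only and 207 bp at those of hypoxia 3 only. Within the 2989 regions the hypoxia 2 interval had a median of 251 bp and the hypoxia 3 interval 287 bp, with the lowest values, 155 and 167 bp, set by the extension of each list. Together the regions covered 1087 kb, 38% of the length of all hypoxia regions.

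Nearly all were single peaks. More than 1 interval of a list fell into 55 of the regions (1.84%), against 36 of 1079 core regions (3.34%). Several summits in the hypoxia 2 interval were listed at 133 regions (4.45%) and in the hypoxia 3 interval at 150 (5.02%). At core regions these shares were 8.99% and 10.3%.

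Hypoxia 2 and 3 placed their summits close together, though seldom at the same base. The rule joins overlapping intervals, so near summits are partly built in. The distance between their summits of smallest p had a median of 31 bp (quartiles 14 and 62, order-statistic interval 30 to 32 bp) in regions with a median width of 335 bp. It was at most 50 bp in 2036 of 2989 regions (68.1%) and at most 150 bp in 2824 (94.5%), and 29 regions had the same summit base in both. Neither library lay to 1 side: the hypoxia 2 summit had the lower coordinate in 1504 regions (50.3%, 48.5% to 52.1%). The widest disagreement was 573 bp.

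Core regions had closer summits, with a median distance of 14 bp (quartiles 6 and 30). The distance fell with the number of reads, however, and core regions have more. Among regions with 16 to 20 reads at the hypoxia 3 summit, the median was 28 bp (order-statistic interval 25 to 32) in 722 regions without a hypoxia 1 call and 26 bp (19 to 35) in 91 core regions. With 21 to 30 reads it was 25 bp in both (21 to 26 in 582 regions and 18 to 28 in 199). With 31 to 50 reads it was 17.5 bp (13 to 21, 196 regions) and 17 bp (14 to 19, 332 regions). The intervals of the classes overlapped in each of these bands. Only hypoxia 3 reads were matched: the median hypoxia 2 reads in these bands were 16, 19 and 29 without and 19, 22 and 34 with a hypoxia 1 call.

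Width behaved otherwise. With 16 to 20 reads the median width was 329.5 bp (320 to 341) without and 365 bp (339 to 399) with a hypoxia 1 call. With 21 to 30 reads it was 378 bp (367 to 387) and 413 bp (394 to 433), and with 31 to 50 reads 451 bp (425 to 471) and 483.5 bp (458 to 509). With 11 to 15 reads it was 308.5 bp (303 to 316) and 321.5 bp (300 to 364). With 6 to 10 reads the order was reversed, at 290 bp and 275 bp, but only 8 core regions fell there. Only the intervals of the band from 21 to 30 reads did not overlap. Hypoxia 2 reads, which were not matched, were also higher at core regions in these bands. The width of a core region also takes in its hypoxia 1 interval, and the part of this in the difference was not tested.

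**Figure D3:**
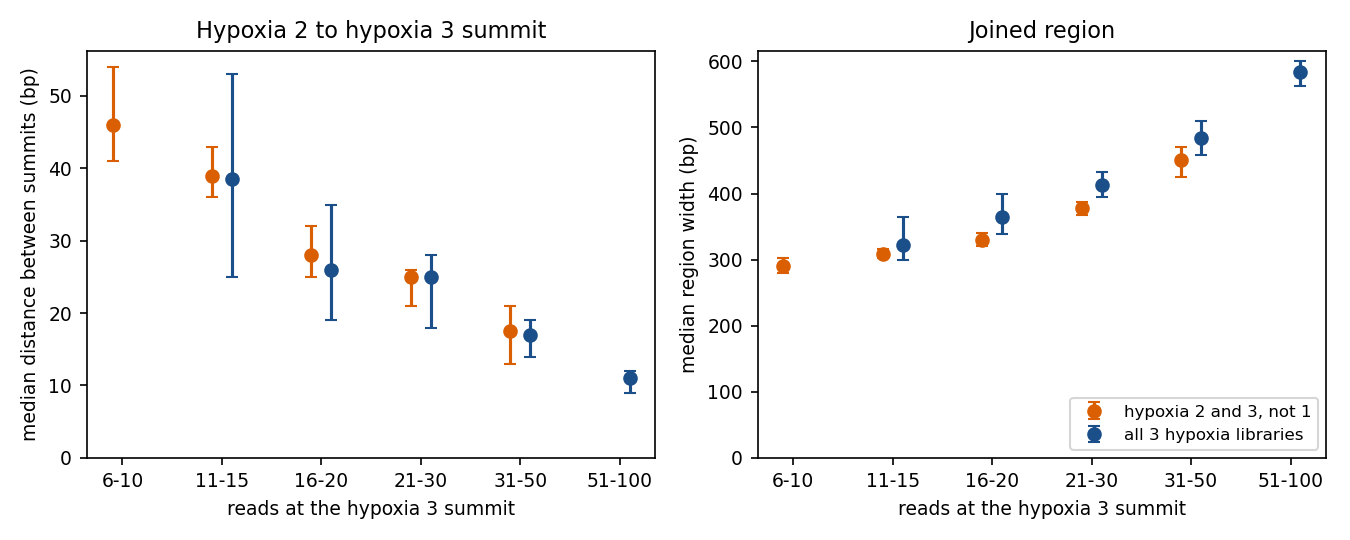
Median distance between hypoxia 2 and hypoxia 3 summits (left, bp) and median region width (right, bp) by reads at the hypoxia 3 summit, for regions without (orange) and with (blue) a hypoxia 1 call; bars are 95% order-statistic intervals and groups under 30 regions are not drawn. Summit distances of the classes overlap in every band both fill. The median width is larger for core regions in those bands, with intervals apart only with 21 to 30 reads (413 against 378 bp).

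Most of the regions did not lie on the flanks of core sites. The gap to the nearest core region had a median of 485 kb (quartiles 119 and 1386 kb, order-statistic interval 444 to 513 kb). It was 869 kb with intervals of −log10 q of at least 5, 833 kb with folds of at least 6 and 1611 kb where overlap had to be reciprocal, at least 50%. Only 62 regions (2.07%, 1.59% to 2.65%) lay within 1 kb of a core region and 186 (6.22%) within 10 kb, whereas 682 (22.8%) lay within 100 kb and 2028 (67.8%) within 1 Mb. The 62 nearest ones had a median fold of 6.24 and 6.44 in hypoxia 2 and 3, against 6.76 and 6.81 for the rest.

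Regions of a single list differed in this distance. The median gap to a core region was 616 kb (565 to 697) for regions of hypoxia 2 only and 407 kb (377 to 439) for those of hypoxia 3 only, one above and the other below the 485 kb of the regions called in both. Core regions themselves were 416 kb (361 to 477) from the next core region. The closest of the 2989 regions to a core region was chr3:5019958-5020679, with a gap of 24 bp and folds of 7.81 and 9.54. Next came chr5:66511959-66512293 at 44 bp and chr10:74032296-74033084 at 57 bp. The most remote were chrX:133594457-133594793, 20640 kb from a core region with folds of 13 and 15.4, its neighbour chrX:133683195-133683765 (20551 kb), and chr6:70294834-70295234 (16058 kb).

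**Figure D4:**
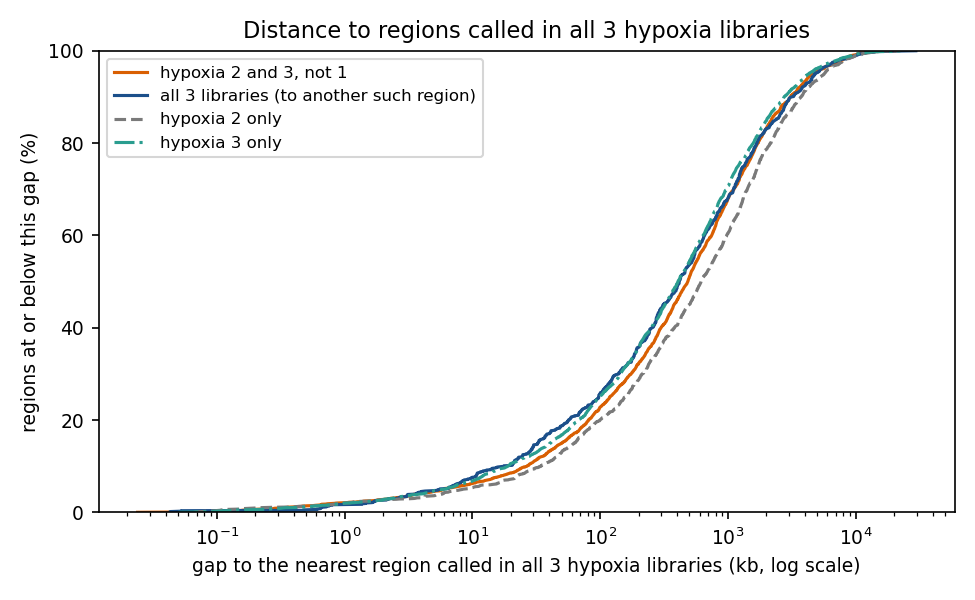
Share of regions (y axis, %) whose gap to the nearest core region is at or below the value on the x axis (kb, log scale). The curve of the regions in hypoxia 2 and 3 without hypoxia 1 (median 485 kb) runs between those of hypoxia 3 only (407 kb) and hypoxia 2 only (616 kb).

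Spacing among the 2989 regions was tighter, and they outnumber core regions. The gap to the next of the 2989 regions had a median of 129 kb (quartiles 29.2 and 438 kb), and 132 regions (4.42%) had another within 1 kb. The nearest hypoxia region of any class was another of the 2989 in 31.9% (30.2% to 33.6%), a core region in 11.8% (10.7% to 13.1%), a region of hypoxia 2 only in 17.7% and one of hypoxia 3 only in 37.7%. Those classes are 31.9%, 11.5%, 18% and 36.9% of all hypoxia regions, close to the proportions among neighbours.

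They occupied 1388 windows of 1 Mb, 541 of which (39%) also held a core region and 694 of which held a single one. At least 10 fell into 8 windows. The fullest, from 16 to 17 Mb of chromosome 2, had 29 and no core region. Next were 68 to 69 Mb of chromosome 11 with 13 and 18 to 19 Mb of chromosome 19 with 12. On chromosome 11 the window had no core region, a median fold of 6.02 in hypoxia 2 and 7.09 in hypoxia 3, and a median local background of 1.89 and 1.83 times the genome-wide value. On chromosome 19 it had 5 core regions and median folds of 6.73 and 6.70. The windows from 156 to 157 Mb of chromosome 1 and from 78 to 79 Mb of chromosome 15 had 11 each and no core region, and that from 128 to 129 Mb of chromosome 3 had 11 and 2 core regions. The last of the 8, 1 on chromosome 14 and 1 on chromosome 16, had 10 each and 4 core regions each.

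At 2p24, the band of MYCN, the regions were of another kind. In the 29 regions between 16079676 and 16575636 of chromosome 2, the median local background was 151 times the genome-wide value in hypoxia 2 (quartiles 139 and 167) and 154 times in hypoxia 3 (140 and 169). Fold ran from 1.40 to 2.62 in hypoxia 2 and from 1.38 to 2.94 in hypoxia 3, from 156 to 310 and 166 to 334 reads. Their median width was 763 bp, and the 3 widest of all 2989 lay here, at chr2:16233344-16235633, chr2:16079676-16081828 and chr2:16407557-16409340. The summits of both libraries were 26 bp apart in the median. Outside the window from 14 to 18 Mb, which held 33 of the regions (1.10%), only 2 had a local background of at least 10 times the genome-wide value, and the widest was 998 bp. The window was not particular to these regions. It held 48 of 3457 regions of hypoxia 3 only (1.39%), 6 of 1686 of hypoxia 2 only (0.356%) and 2 of 1079 core regions (0.185%).

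At 150 times the genome-wide background, a call needed a fold of 1.69 in hypoxia 1, 1.35 in hypoxia 2 and 1.35 in hypoxia 3. Of the 29 regions, 17 had a fold of at least 1.69 in hypoxia 2 and 21 in hypoxia 3. The others had folds below the hypoxia 1 level in the library named. No core region in the window had a background of at least 10 times the genome-wide value.

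Density differed widely between chromosomes. It was highest on chromosome 19 with 25.7 regions per 10 Mb (152 regions), then 18.1 on chromosome 17 and 15 on chromosome 22. It was lowest on chromosome 18 with 2.2 (17 regions) and X with 2.77 (43 regions). The end of the last interval on a chromosome stood in for its length. Core regions followed a like order, with 9.82 per 10 Mb on chromosome 19, 9.75 on 17 and 0.775 on 18.

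The share without a hypoxia 1 call also varied by chromosome. On chromosome 17, 65% (58.4% to 71.2%) of the regions called in hypoxia 2 and 3 lacked a hypoxia 1 call, the lowest share (147 regions, beside 79 core regions). On chromosome 10 the share was 81.1% (75.3% to 85.9%), the highest (184 beside 43), against 73.5% over all chromosomes. Both were picked as the extremes, and their intervals do not allow for that choice. On every other chromosome the interval included 73.5%. As a share of all hypoxia regions of the chromosome, however, the regions made up 28.2% on chromosome 17 and 29.3% on chromosome 10, both below the 31.9% of all chromosomes, and chromosome 3 had the highest share with 36.6%. On chromosome 10, local background stood at the genome-wide value at 25% of the regions in hypoxia 2 and 77.2% in hypoxia 3. On chromosome 17 it did so at 15.6% and 8.84%, and over all regions at 22.2% and 25.5%. The part of background in these shares was not tested.

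**Figure D5:**
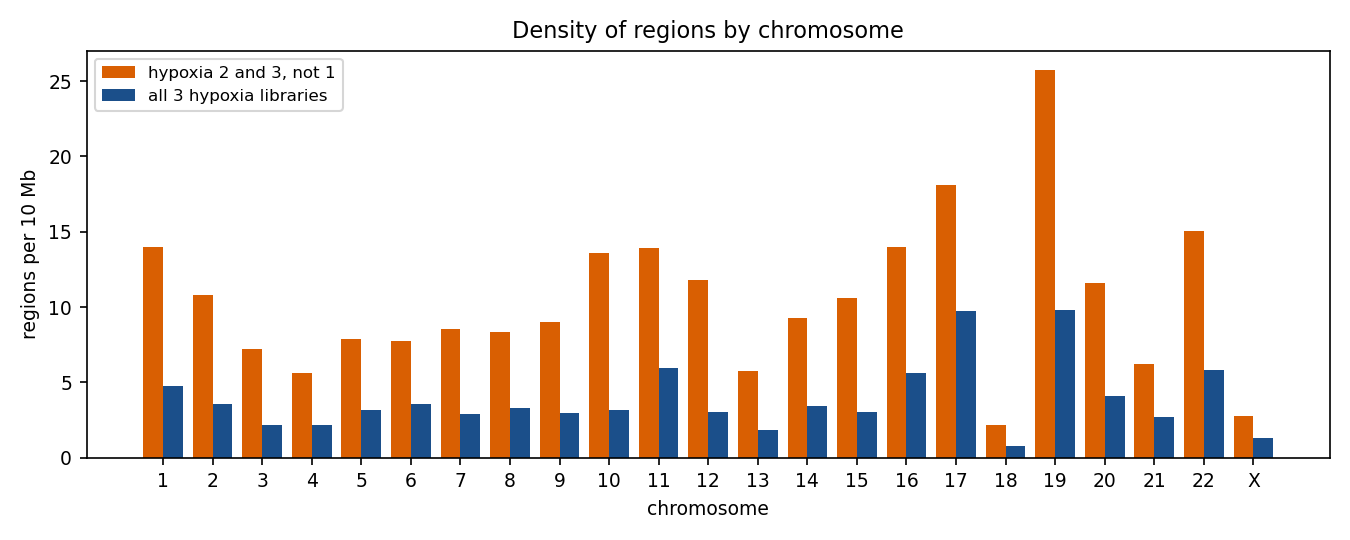
Regions per 10 Mb (y axis) on each chromosome (x axis) for regions in hypoxia 2 and 3 without hypoxia 1 (orange) and core regions (blue). Chromosome 19 has 25.7 and 9.82 and chromosome 18 has 2.2 and 0.775.

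Normoxia calls, which the rule did not use, were rare at the regions. The normoxia lists were short, with 70, 32 and 109 intervals on the chromosomes used in normoxia 1, 2 and 3. Such lists can call only a small share of 2989 regions, so a low share does not show that normoxic cells lack binding there. At least 1 normoxia library called 12 of 2989 (0.401%, 0.208% to 0.7%), against 1.19% of all hypoxia regions. Regions of a single list had lower shares still, at 0 of 1686 in hypoxia 2 only and 5 of 3457 (0.145%) in hypoxia 3 only. For the 2989 regions the calls were uneven between normoxia libraries. Normoxia 1, 2 and 3 called 0, 1 and 12 of the 2989, so without normoxia 3 a single region remained. At 0 calls, the exact interval allows a share of up to 0.123%. At core regions 76 of 1079 (7.04%, 5.59% to 8.74%) had a normoxia call, with 28, 23 and 73 in normoxia 1, 2 and 3. Only 1 of the 2989 regions was called in at least 2 normoxia libraries, against 0.309% of all hypoxia regions.

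The shares were also compared among regions of similar strength, in 1 wide band of hypoxia 3 reads. Core regions lie higher within that band, and hypoxia 2 reads were not matched. Among regions with 11 to 50 reads at the hypoxia 3 summit, normoxia 1 called 0 of 2530 regions without and 13 of 672 (1.93%) with a hypoxia 1 call. Normoxia 2 called 1 (0.0395%) and 11 (1.64%), and normoxia 3 called 10 (0.395%) and 26 (3.87%). The share was higher at core regions in 3 of 3 normoxia libraries, by 2.34 ± 1 percentage points (SD, n = 3; two-sided exact sign-flip permutation test, p = 0.25, the smallest that 3 libraries allow). The normoxia lists share their short fragment extension with hypoxia 1, at 46 to 48 bp, and the part of this in the difference was not tested.

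All 12 regions with a normoxia call were called in normoxia 3, 1 of them at 2p24 with a fold of 1.94. Outside 2p24 the normoxia 3 summit held 6 to 16 reads (median 8) and the fold was 4.66 to 10.6 (median 6.01). The median fold at the same 11 regions was 6.88 in hypoxia 2 and 9.21 in hypoxia 3. The normoxia 3 summit lay within 50 bp of a hypoxia 2 or 3 summit in 9 of 12. Both normoxia and hypoxia libraries supported chr6:28023189-28023475, which normoxia 2 and 3 called with folds of 14.3 and 10.6, from 18 and 14 reads. There hypoxia 2 and 3 had folds of 6.16 and 9.21, from 20 and 22 reads, and the normoxia 3 summit lay 3 bp from the hypoxia 3 summit. Fragment extension differs between normoxia and these hypoxia libraries, so the folds show no order between oxygen levels.

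Other examples were called by normoxia 3 alone. At chr11:65769361-65769992 the fold was 6.55 in normoxia 3 and 10.2 and 10.8 in hypoxia 2 and 3. At chr12:74146-74411 it was 8.5 in normoxia 3 and 3.78 and 9.24 in hypoxia 2 and 3. On chromosome 1 there were 4 such regions, among them chr1:183440971-183441376 with a fold of 5.06 in normoxia 3 and 9.71 and 10.8 in hypoxia 2 and 3. All 12 lacked a hypoxia 1 call by choice. The lowest −log10 p of a call was 6.37 in normoxia 3 and 5.28 in hypoxia 1.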

How the data were processed

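Peak lists of 6 HIF-1α ChIP-seq libraries were used. BWA 0.7.17, MACS2 and the build hg19 are named, with no roles, per the submitters' processing notes. Settings are not stated in the labels used here. The authors' deposited fold matched summit reads plus 1 divided by local background plus 1. Genome-wide background was 0.318, 0.920 and 0.886 reads in hypoxia 1, 2 and 3. The added 1 thus lowers folds at low background, by different amounts between lists. The deposited −log10 p and −log10 q are the peak caller's own. The deposited score was 10 times −log10 q cut to a whole number in every line. Each list was made from 1 library.

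Lines sharing start and end were merged into 1 interval, keeping the summit of smallest p. Whole reads and local background were recovered from fold and p in all 16463 summits (Poisson tail within 0.001), and the smallest background was taken as genome-wide. The code was tested on simulated data. Shares have exact binomial (Clopper-Pearson) 95% intervals and medians order-statistic intervals, with Python 3.11.15, scipy 1.17.1 and pandas 2.3.3; they cover counting error only. Regions are not replicates, so classes of regions were described without tests, except normoxia calls, compared over libraries by an exact permutation test added after the data were seen. The members, lists and rules were chosen with earlier results of these data known. Regions were named by rule: the 10 with the highest mean fold percentile, the 3 widest, the 3 nearest to and 3 farthest from a core region, those of at least 2 normoxia lists, and the fullest megabase; the further ones named, at the rule's edge, at the lowest p, with a normoxia 3 call and in other dense windows, were chosen after their values were seen. Promoter, motif and gene analyses need hg19 sequence or annotation and were not run.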

Additional observations from a re-analysis of the deposited data

Results flagged for a closer look

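On chromosome Y and contigs outside the chromosomes used, 16 of 109 regions also had an interval of hypoxia 2 and of hypoxia 3 and none of hypoxia 1. On the chromosomes used, 2989 of 9397 regions met the same rule. The 16 are named because these sequences enter no comparison of the text. The matching normoxia pattern, normoxia 2 and 3 without normoxia 1, occurred 0 times there, but only 3 times on the chromosomes used, so that count says little. None of the 16 lay on chromosome Y.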

How the results depend on the processing

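Alternatives were chosen with earlier results known, and leaving out chromosome 2 from 14 to 18 Mb was added after the data were seen. The number of regions was 1695 at a fold of at least 6. That cut applied to every list, hypoxia 1 included, so regions could both leave and join. With 1 library left out the number was between 2989 and 6478 (6478 without hypoxia 2, 4736 without hypoxia 3), where fewer lists had to make or lack a call. Median width was 369 bp at −log10 q of at least 5, 380 bp at a fold of at least 6, 341 bp with reciprocal overlap of at least 50%, and 225 to 366 bp with 1 library left out. The median summit distance was 24 bp at that q, 23 bp at that fold, 26 bp with reciprocal overlap, 29 bp with summits within 150 bp, which caps it, and 26 to 31 bp with 1 library left out. The median gap to a core region was 869 kb at that q and 833 kb at that fold, with fewer core regions, 1611 kb with reciprocal overlap, and 425 to 511 kb with 1 library left out. The share with a normoxia call was 0.133% at that q, 0.785% with reciprocal overlap, and 0.0335% (without normoxia 3) to 2.16% (without hypoxia 1, where core regions join) with 1 library left out. Where no construction is named, the cause was not tested. No paired analysis was possible because no result on the regions comes from a test of normoxic against hypoxic libraries; the permutation test compares classes of regions within each normoxia library. A median of 15 and 16 reads at a summit limits any single region. The alternatives planned for promoters and motifs were not run.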
